A study of Homo sapiens with 22 samples.

Results

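The 9 genes described here are the epithelial junction and adhesion genes of the reprogramming time course, namely the cadherins CDH1 and CDH2, the adhesion molecule EPCAM, the claudins CLDN3, CLDN4, CLDN6 and CLDN7, the splicing regulator ESRP1 and the small GTPase RAB25. They were taken by gene symbol from the 33694 genes counted, and all 9 were among the 12794 genes tested, which were detected in at least 5% of the cells kept. Their selection rule uses no measured value, but they were chosen with earlier results of these data known. The cells were human BJ fibroblasts, an established foreskin fibroblast line, grown in microfluidic chambers. The D0 pools were controls taken before transfection. The pools of D3, D5, D7, D9, D11, D13 and D15 came from cells that had been transfected with mRNA for POU5F1, SOX2, KLF4, MYC, LIN28 and NANOG. The course had 8 transfections, the last on day 8, so the pools of D3, D5 and D7 were taken before it was complete. From day 9 the cells were in a pluripotent stem cell medium. Each day had 2 pools, A and B, each joined from several chips of 1 cell line and captured in droplets. The p-values of edgeR and DESeq2 thus measure the spread between such pools, which share the line and may share the experiment.

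Epithelial sheets are held together by adherens junctions, built on E-cadherin, and by tight junctions, whose strands are formed by claudins. Fibroblasts carry N-cadherin in place of E-cadherin, and the exchange of these cadherins is the classical readout of a mesenchymal-to-epithelial transition. Pluripotent stem cells of the human epiblast type grow as epithelial colonies and carry E-cadherin, EPCAM and several claudins. The repressors SNAI1, SNAI2, ZEB1 and ZEB2 bind the hexamer CACCTG, an E-box, and silence epithelial genes in mesenchymal cells.

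In the gencode v44 annotation of GRCh38, CDH1 (ENSG00000039068) lies at chr16:68737292-68835537 on the plus strand and CDH2 (ENSG00000170558) at chr18:27932879-28177946 on the minus strand. EPCAM (ENSG00000119888) lies at chr2:47345158-47387601 and RAB25 (ENSG00000132698) at chr1:156061160-156070504, both on the plus strand. CLDN3 (ENSG00000165215, chr7:73768997-73770270, minus strand) and CLDN4 (ENSG00000189143, chr7:73799542-73832690, plus strand) are neighbours. CLDN6 (ENSG00000184697, chr16:3014712-3020071) and CLDN7 (ENSG00000181885, chr17:7259903-7263983) are both on the minus strand. ESRP1 is ENSG00000104413. CLDN6 overlaps TNFRSF12A, and CLDN7 overlaps ELP5, in each case on the opposite strand. CLDN7 also overlaps RP1-4G17.5 on its own strand, so counts of CLDN7 are less certain there.

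RefSeq promoter windows of GRCh38.p14, from 250 bases before to 50 bases after an annotated start, were in hand for 6 of the 9 genes, in 8 windows. CDH1, EPCAM and ESRP1 had no entry. The letters CACCTG, a motif chosen after the data were seen, or CAGGTG for the same hexamer on the other strand, occurred in 4 of these 8 windows, against 20.6% of the 35116 windows of this length in the table. The 4 windows are shown with these letters in capitals to let the promoters of members be compared, although these members were first called above D0 on different days, and the window of CLDN4, which holds none, is shown beside that of its neighbour CLDN3. Each is written 5′ to 3′ on the strand of its gene.
RAB25, chr1:156060910-156061209, plus strand: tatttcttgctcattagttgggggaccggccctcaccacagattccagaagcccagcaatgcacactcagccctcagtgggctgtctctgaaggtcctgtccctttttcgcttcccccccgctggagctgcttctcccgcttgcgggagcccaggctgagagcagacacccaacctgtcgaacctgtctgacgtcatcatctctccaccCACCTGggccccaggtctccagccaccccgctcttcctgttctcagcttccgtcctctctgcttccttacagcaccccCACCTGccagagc
CLDN3, chr7:73770221-73770520, minus strand: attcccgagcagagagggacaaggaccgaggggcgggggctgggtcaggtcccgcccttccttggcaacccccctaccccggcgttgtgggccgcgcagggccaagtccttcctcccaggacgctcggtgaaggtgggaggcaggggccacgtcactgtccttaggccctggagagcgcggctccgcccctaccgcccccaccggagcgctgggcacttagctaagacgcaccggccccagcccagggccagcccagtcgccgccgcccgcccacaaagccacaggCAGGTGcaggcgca
CLDN4, chr7:73830746-73831045, plus strand: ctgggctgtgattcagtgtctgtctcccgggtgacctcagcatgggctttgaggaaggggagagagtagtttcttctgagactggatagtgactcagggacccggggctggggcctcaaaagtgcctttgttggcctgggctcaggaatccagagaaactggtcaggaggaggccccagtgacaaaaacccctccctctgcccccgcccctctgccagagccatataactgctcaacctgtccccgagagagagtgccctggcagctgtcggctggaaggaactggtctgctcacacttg
CLDN6, chr16:3018134-3018433, minus strand: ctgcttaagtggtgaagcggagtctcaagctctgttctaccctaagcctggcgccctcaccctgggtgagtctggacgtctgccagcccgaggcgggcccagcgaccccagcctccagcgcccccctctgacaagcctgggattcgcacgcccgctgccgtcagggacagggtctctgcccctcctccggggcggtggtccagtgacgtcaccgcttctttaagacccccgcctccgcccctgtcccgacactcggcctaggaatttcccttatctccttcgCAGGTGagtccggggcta
CLDN7, chr17:7262429-7262728, minus strand: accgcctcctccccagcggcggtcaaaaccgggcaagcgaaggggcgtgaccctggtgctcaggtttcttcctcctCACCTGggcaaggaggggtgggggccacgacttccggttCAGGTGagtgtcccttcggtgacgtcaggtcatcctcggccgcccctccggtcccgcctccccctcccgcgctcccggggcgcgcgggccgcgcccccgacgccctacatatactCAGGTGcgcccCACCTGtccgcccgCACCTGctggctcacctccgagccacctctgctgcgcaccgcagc
The CLDN7 window held 5 matches, at 174, 135, 20 and 9 bases before the start and 5 bases after it. RAB25 held 2, and CLDN3 and CLDN6 held 1 each. The second CLDN7 window and both CDH2 windows held none. A match is a description of the letters and not of a bound site.

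Levels are given as CPM, the UMI counts of a gene scaled to 1 common total per pool, a UMI being a unique molecular identifier that stands for 1 captured mRNA. The pools held 33181614 to 180056814 UMIs in 571 to 6142 cells kept, with a median of 23717 to 80168 UMIs per cell. Pairs of libraries shared at most 41 cell barcodes and at most 1.633% of those of the smaller one. The summed level of 7 fibroblast genes, VIM and S100A4 among them, was 17291 and 17650 CPM in the D0 pools, 3845 to 4164 CPM on D9, 5804 to 6166 CPM on D11 and 1521 to 1913 CPM in the D15 pools. Between D3 to D7 and D9 to D15, 5 of these 7 genes fell, while FN1 and TAGLN rose (1.65 and 2.47 on the log2 scale, edgeR adjusted p at most 1.67e-07). The 6 keratinocyte markers, which would mark another epithelial cell type, summed to at most 0.246 CPM in any pool, and 2 to 6 of them were at 0 in each pool. The 9 trophoblast markers summed to 114 and 121 CPM on D0, 229 and 216 CPM on D11 and 32.2 and 37.1 CPM on D15. The 9 mesendoderm markers summed to 3.33 and 3.49 CPM on D0 and 208 and 155 CPM on D11. They were at 133 and 154 CPM on D13 and 93.4 and 130 CPM on D15. The 6 neural markers summed to between 116 and 229 CPM in each pool. The 6 endothelial and blood markers summed to 4.14 and 4.44 CPM on D0 and 30.7 and 22.2 CPM on D15. Of these 6, 5 were below 1 CPM in each D15 pool. The part of such cells in the results was not tested. A difference was called when edgeR's quasi-likelihood test on pool sums gave an adjusted p under 0.01 together with a change of more than 0.25 on the log2 scale.

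**Figure D1:**
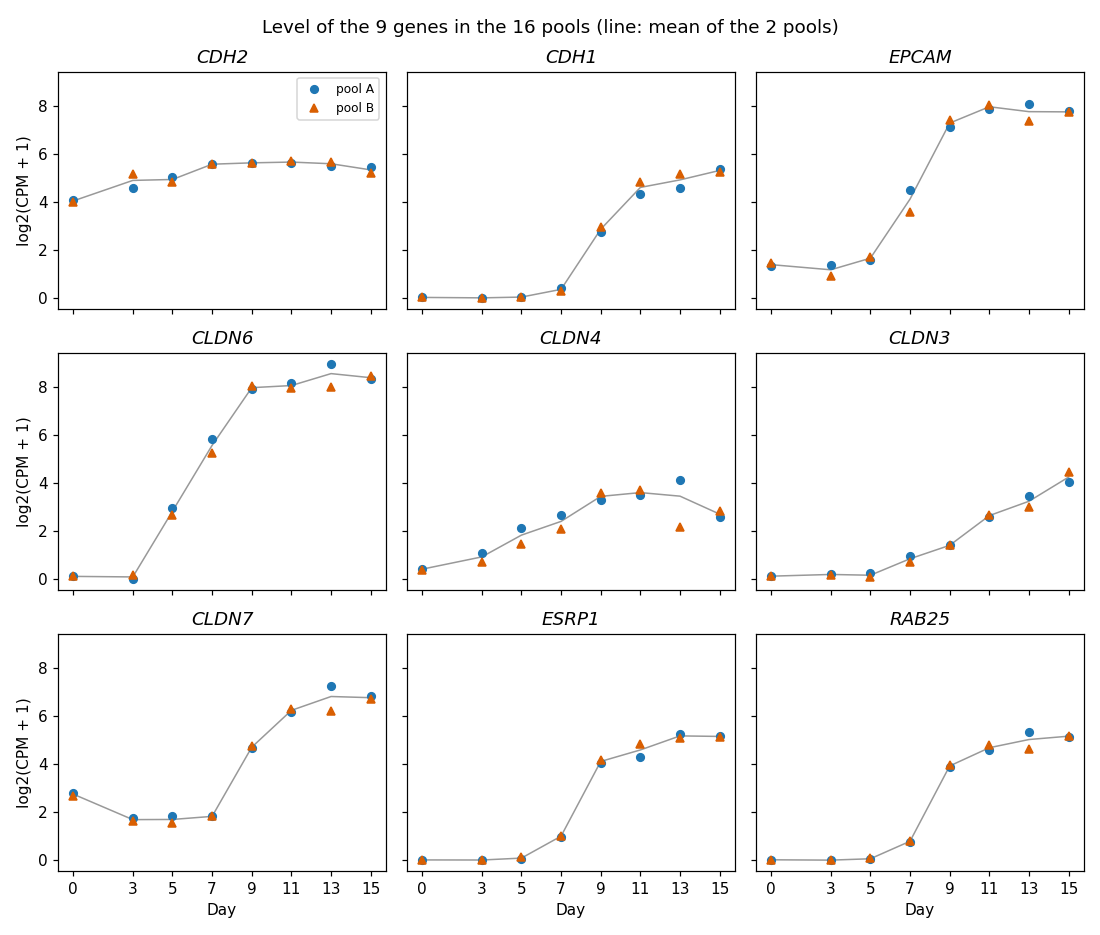
Level of each of the 9 genes as log2(CPM + 1) against the day, with pool A as circles, pool B as triangles and the mean of the 2 pools as a line. CDH2 starts at 15.0 to 15.8 CPM on D0 and never falls back to that level, whereas CDH1, ESRP1 and RAB25 stay under 0.1 CPM up to D5.

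N-cadherin rose first. CDH2, the cadherin of fibroblasts and neural cells, measured 15.8 and 15.0 CPM in pools A and B of D0 and 22.9 and 34.3 CPM in those of D3. The D5 pools were at 31.6 and 27.2 CPM, and the D7 pools at 46.3 and 46.2 CPM. All 14 pools after D0 lay above both D0 pools. CDH2 rose from D0 to D3 by 0.87 ± 0.21 (SE) on the log2 scale (edgeR, adjusted p = 0.00611), as did 13.1% of all genes tested. The adjusted p of this step was 0.0318 without pool A of D0, 0.0575 without pool B of D0 and 0.0624 without pool B of D3 in the same edgeR fit, so the call rests on these pools. On D9, D11 and D13 it measured between 44.02 and 51.1 CPM, and on D15 it measured 42.0 and 36.2 CPM. The D15 pools lay below every pool of D7 to D13, yet no step after D3 was called, and on D15 CDH2 was still above D0 (log2 fold change 1.28 ± 0.21, adjusted p = 0.000188 in edgeR).

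E-cadherin was close to absent for the first days. CDH1, the core of epithelial adherens junctions, gave 5 UMIs in both D0 pools together, 1 on D3 and 3 on D5. It gave 79 UMIs on D7, at 0.329 and 0.234 CPM. The level was then 5.77 and 6.73 CPM on D9, 18.9 and 27.5 CPM on D11, 23.1 and 35.0 CPM on D13, and 39.9 and 37.0 CPM on D15. The pools of D11 and D13 overlapped, whereas those of D15 lay above all others. CDH1 rose from D5 to D7 (edgeR, adjusted p = 0.00475), from D7 to D9 by 4.43 ± 0.32 on the log2 scale (adjusted p = 8.58e-06) and from D9 to D11 by 1.87 ± 0.28 (adjusted p = 0.0014). By UMIs, the D15 level was 2386 times that of D0, with a 95% counting interval of 1022 to 7353 that covers counting error only.

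The cadherin ratio, with 1 CPM added to each gene, was lower on D3 to D7 than on D0 and higher from D9 on. The early fall depends on the added CPM. CDH1 itself went from 0.0180 and 0.0136 CPM on D0 to 0.329 and 0.234 CPM on D7, while CDH2 went from 15.8 and 15.0 to 46.3 and 46.2 CPM. The log2 ratio of CDH1 to CDH2, with 1 CPM added to each, was -4.04 and -3.98 on D0 and between -5.26 and -4.58 in the 6 pools of D3 to D7. It was -2.87 and -2.66 on D9, -1.29 and -0.87 on D11, -0.90 and -0.49 on D13, and -0.07 and 0.03 on D15. The means were -4.98 ± 0.26 (SD, n = 6) for D3 to D7 and -1.14 ± 1.09 (SD, n = 8) for D9 to D15, a difference of 3.84 with no overlap (p = 0.00067 in an exact permutation test, two-sided, where 3003 splits allow no smaller value). The test shuffled single pools as if independent, although the 2 pools of a day lay close together and the ratio changed between days. Its p is thus not a measure of the spread between pools of a day, and the SD of D9 to D15 includes the change between days. The size, and the direction up to D7, depend on the added CPM. The difference was 6.44 with 0.1 CPM, and 1.30 with 10 CPM, where the groups overlapped (exact permutation p = 0.00266). At the level of the whole pool the CDH1 count drew level with the CDH2 count on D15 and did not replace it.

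EPCAM, the epithelial cell adhesion molecule, was present at a low level in the fibroblasts. It measured 1.51 and 1.71 CPM on D0, 1.60 and 0.907 CPM on D3, and 2.03 and 2.27 CPM on D5. It then measured 21.5 and 11.04 CPM on D7, 138 and 170 CPM on D9, and 234 and 259 CPM on D11. On D13 the pools were at 266 and 162 CPM, and on D15 at 216 and 209 CPM, so the D13 pools lay on either side of the others, and both D15 pools were below both D11 pools. EPCAM rose from D5 to D7 by 2.93 ± 0.33 on the log2 scale (edgeR, adjusted p = 0.000354) and from D7 to D9 by 3.20 ± 0.32 (adjusted p = 5.34e-05).

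Of the claudins, CLDN6 was the first to be called as higher between adjacent days. CLDN6, a claudin of embryonic epithelia that is also found on pluripotent stem cells, gave 25 UMIs on D0 and 19 on D3. Its D5 pools were at 6.86 and 5.27 CPM, its D7 pools at 55.5 and 36.9 CPM and its D9 pools at 238 and 257 CPM. It measured 280 and 247 CPM on D11, 495 and 249 CPM on D13, and 319 and 342 CPM on D15, with pool A of D13 above all the others. CLDN6 was the 1 member that rose from D3 to D5 (log2 fold change 6.26 ± 0.59, adjusted p = 3.75e-05 in edgeR), a step at which 3.2% of all genes tested rose. Without thinning, 7.90% ± 0.28 of D5 cells (SD, n = 2) held a CLDN6 UMI, against 0.235% ± 0.033 on D0, where the median depth per cell was lower.

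CLDN4, a claudin that CLDN3 neighbours on chromosome 7, followed another course. It measured 0.348 and 0.313 CPM on D0, 1.13 and 0.656 CPM on D3, then 3.36 and 1.73 CPM on D5, with 5.27 and 3.27 CPM by D7. It reached 8.74 and 10.9 CPM on D9 and 10.2 and 12.0 CPM on D11, then 16.3 and 3.53 CPM on D13 and 4.94 and 6.05 CPM on D15. No step between adjacent days was called for CLDN4, and its pools on D13 differed more than for any other day. From D0 to D3 it differed by 1.37 ± 0.56 on the log2 scale (edgeR, adjusted p = 0.0675, not called), with both D3 pools above both D0 pools. It was above D0 from D5 on (log2 fold change 2.86 ± 0.57 on D5, adjusted p = 0.00147 in edgeR). On D5 that adjusted p was 0.0152, 0.0189 and 0.0207 without pool A of D0, pool B of D0 or pool A of D5.

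CLDN3 was the furthest of the members from its highest level on D9. It measured between 0.0567 and 0.176 CPM in the pools of D0 to D5, 0.939 and 0.651 CPM on D7, and 1.65 and 1.63 CPM on D9. On D11 it measured 5.04 and 5.41 CPM, on D13 9.86 and 6.97 CPM, and on D15 15.2 and 20.6 CPM. From D7 on, the pools of each day lay above those of the day before. CLDN3 rose from D5 to D7 by 2.58 ± 0.37 and from D9 to D11 by 1.65 ± 0.27 on the log2 scale (edgeR, adjusted p = 0.00158 and 0.00288), and from D13 to D15 it differed by 1.13 ± 0.27 (adjusted p = 0.0386, not called).

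CLDN7 was the 1 epithelial member that fell before it rose. CLDN7, a claudin known to associate with EPCAM, measured 5.96 and 5.43 CPM in the D0 fibroblasts and between 1.93 and 2.54 CPM in all 6 pools of D3 to D7. It fell by 1.40 on the log2 scale from D0 to D3 (SE 0.23, edgeR adjusted p = 0.000532), when 12.6% of all genes tested fell. It then measured 24.1 and 25.7 CPM on D9, 70.3 and 77.7 CPM on D11, 149 and 72.9 CPM on D13, and 111 and 103 CPM on D15. The step from D7 to D9 was 3.26 ± 0.24 and that from D9 to D11 was 1.55 ± 0.22 on the log2 scale (edgeR, adjusted p = 8.58e-06 and 0.00127).

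ESRP1 and RAB25 had the most similar courses of any pair of members. ESRP1, which sets the epithelial splice forms of many mRNAs, gave 2 UMIs on D0 and 6 on D5, and measured 0.967 and 1.02 CPM on D7. It measured 15.3 and 17.0 CPM on D9, 18.8 and 27.1 CPM on D11, 36.9 and 32.9 CPM on D13, and 34.8 and 33.9 CPM on D15. RAB25, a GTPase of the apical recycling pathway in epithelia, gave 3 UMIs on D0, 0 on D3 and 4 on D5, and measured 0.700 and 0.746 CPM on D7. It measured 13.5 and 14.7 CPM on D9, 22.7 and 26.3 CPM on D11, 38.8 and 23.8 CPM on D13, and 34.0 and 35.2 CPM on D15. From D7 to D9, ESRP1 rose by 3.99 ± 0.29 and RAB25 by 4.25 ± 0.25 on the log2 scale (edgeR, adjusted p = 8.58e-06 and 5.69e-06). Over the 16 pools, the gene most like ESRP1 was RAB25 and the gene most like RAB25 was ESRP1, with a Pearson r of 0.998 of log2(CPM + 1) among 9248 genes searched, a description over pools that share a time course.

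Counted over the steps, most calls fell in 2 of them. From D5 to D7, 6 of the 9 members rose (CDH1, CLDN3, CLDN6, EPCAM, ESRP1 and RAB25), against 1.81% of all genes tested. From D7 to D9, 6 rose (CDH1, CLDN6, CLDN7, EPCAM, ESRP1 and RAB25), against 4.59%. From D9 to D11, 3 rose (CDH1, CLDN3 and CLDN7), against 2.92%. The median log2 fold change of the 9 members was 2.93, 3.20 and 0.66 in these steps, where that of all genes was -0.01, -0.02 and 0.05. Without thinning, CDH1, CLDN3, ESRP1 and RAB25 were found in under 5% of cells on each day up to D7 (mean of 2 pools). They passed the detection filter through the later pools where they were high, so the filter bears on counts of members set against all genes. In simulated data of D9 against D7, the edgeR fit called 9 of 50 genes changed 2-fold and 44 of 50 changed 4-fold. A step that was not called can thus hold a change. No member was called by edgeR from D11 to D13 or from D13 to D15, where 0.117% and 0.086% of all genes were called in either direction. At an unadjusted p below 0.05 there were 3 members in the former step (CLDN3, CLDN7 and ESRP1) and 1 in the latter (CLDN3), and DESeq2 called 0 and 1 members, where it called 3.7% and 5.11% of all genes in either direction. These counts rest on few pools, and without pool A of D5 none of the 6 members passed from D5 to D7. Without pool B of D5, or without pool A of D7, 3 passed. Over all genes the number that rose in this step went from 232 to 24, 111 and 105 in the same fits. Without either pool of D9, none passed from D9 to D11, and without either pool of D11, 1 passed, while the number over all genes went from 373 to 34 and 44, and to 87 and 157.

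Set against D0, whose pools all these comparisons share, CDH2 was above from D3, CLDN4 and CLDN6 from D5, and CDH1, CLDN3, EPCAM, ESRP1 and RAB25 from D7, with CLDN7 last on D9. On D5, 3 members were above D0, against 15.7% of all genes, and CLDN7 was below it, as were 13.8% of all genes. On D7, 8 members were above D0 and CLDN7 was below, against 19.4% and 17.3%. All 9 were above D0 on D9, D11, D13 and D15, where 24.5%, 22.2%, 25.3% and 26.8% of all genes were. On D9 the members stood at very different parts of their own highest day. CDH2 was at 97.8%, CLDN4 at 88.7%, CLDN6 at 66.6%, EPCAM at 62.3%, ESRP1 at 46.4%, RAB25 at 40.7%, CLDN7 at 22.5%, CDH1 at 16.2% and CLDN3 at 9.18% of the highest day's mean. By this measure CDH1 was among the later members to approach its highest sampled level, which fell on D15, the last day. The highest day of CLDN6 and CLDN7 was D13, where pool A lay far above pool B. Between D3 to D7 and D9 to D15, 8 of the 9 were higher, against 21% of all genes. For CDH1, CLDN3, ESRP1 and RAB25, which passed the detection filter through the later pools, this direction was partly set by the filter, also against D0. CDH2 was not called between D3 to D7 and D9 to D15 (log2 fold change 0.39 ± 0.11, adjusted p = 0.0108 in edgeR). CDH2 lay at the limit of the call, and it passed as higher in DESeq2 (adjusted p = 0.00137), with the DESeq2 size factors in edgeR (0.00749), without pool B of D3 (0.000485) and without pool A of D13 (0.00514).

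**Figure D2:**
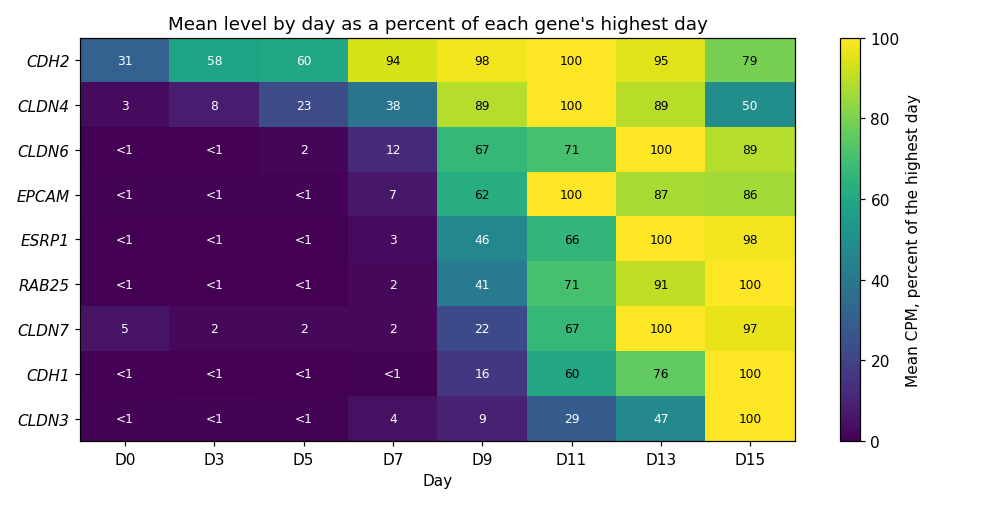
Mean CPM of each gene on each day as a percent of its highest day, with genes as rows and days as columns, and the value written in each cell. On D9, CLDN4 stands at 88.7% of its highest day and CDH1 at 16.2%.

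In single cells, compared at 5000 UMIs each, the 8 epithelial members were found in more cells on D15 than on D0, though not in steady steps, and the spread between pools was wide on some days. The share of CLDN7 was lower on D5 than on D0, at 1.09% ± 0.19, and that of CLDN4 was 4.51% ± 0.77 on D11 and 2.93% ± 0.32 on D15. The share of cells with a CLDN6 UMI was 1.66% ± 0.45 (SD, n = 2) in D5 pools and 12.8% ± 6.6 in D7 pools, and it was 48.8% ± 6.5 by D9 and 74.9% ± 2.6 by D15. For EPCAM it was 0.895% ± 0.138 on D0, 5.44% ± 2.95 on D7, 33.5% ± 6.6 on D9 and 57.3% ± 1.5 on D15. For CLDN7 it was 2.67% ± 0.30 on D0, 8.58% ± 0.28 on D9 and 41.6% ± 4.3 on D15. For CDH1 it was 0 of the 6142 and 4634 cells of the D0 pools, which allows up to 0.0278% of cells with a UMI at this depth (0.046% ± 0.004 held one without thinning), and then 3.42% ± 0.13 on D9 and 16.3% ± 2.5 on D15. The D15 shares of ESRP1 and RAB25 were 14.5% ± 0.2 and 14.9% ± 1.2, and that of CLDN3 was 7.49% ± 1.68. The share of CDH2 was 7.25% ± 0.59 in D0 pools, 21.4% ± 0.9 in D11 pools and 13.9% ± 0.2 in D15 pools. Without thinning, 67.0% ± 11.2 of D15 cells held a CDH1 UMI and 92.6% ± 2.3 an EPCAM UMI, so the shares depend on the depth at which cells are compared.

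The share of cells with several of the 8 members other than CDH2 was higher on later days, as the single shares were, and no test of their being found together was made. At 5000 UMIs, 3.87% and 3.58% of D0 cells held a UMI of any of them, and no D0 cell held 3 or more. On D7 the shares with any of them were 24.7% and 11.5%, pool A being above pool B. On D9 they were 53.3% and 65.1%, and on D15 they were 90.2% and 91.6%. The share with 3 or more was 0.695% and 0.519% on D7, 11.9% and 15.0% on D9, and 43.4% and 44.6% on D15. Among the D7 cells with any member, CLDN6 was found in 70.7% and 71.2% and EPCAM in 30.4% and 29.2%, whereas CDH1 was found in 2 and 0 cells of 427 and 288.

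**Figure D3:**
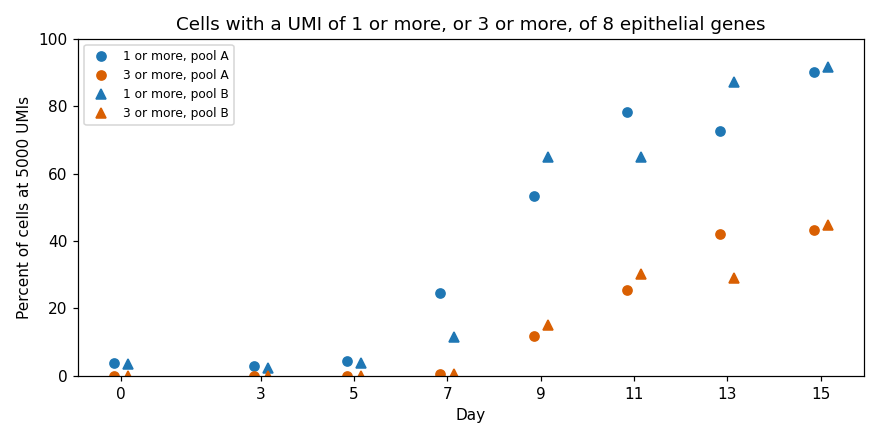
Percent of cells with a UMI of 1 or more (blue) and of 3 or more (orange) of the 8 epithelial members, by day and pool, with each cell thinned to 5000 UMIs. The share with 3 or more goes from 0 on D0 to 43.4% and 44.6% on D15.

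A pool mixes cells, and in a pool sum more cells of a type and more mRNA per cell cannot be told apart. Cells were therefore split by markers that are no members, at 5000 UMIs. P cells held at least 3 UMIs of 6 pluripotency markers (L1TD1, DPPA4, TDGF1, DNMT3B, LINC00678 and TERF1) and more of these than of 8 fibroblast matrix markers (COL1A1, COL1A2, COL3A1, COL6A3, DCN, LUM, THY1 and POSTN), and M cells the reverse. P cells made up at most 0.736% of a pool up to D5, 101 and 102 cells of the D7 pools, and 40.7% to 88.4% of the pools of D9 to D15. Of the 17727 cells of D9 to D15, 10587 were P cells, 6544 were M cells and 596 were neither, and 1252 lay within 1 UMI of equal marker counts. P cells held a median of 16 UMIs of their own markers and 3 of the others, and M cells 17 and 1. The median depth of a class was 31020 to 72435.5 UMIs in P cells and 21679 to 55510 UMIs in M cells over the 8 pools, and no doublets were removed.

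Within the 8 pools of D9 to D15, 7 members were called as higher in P cells, and 35.7% of the 12780 genes tested were. These 7 were also higher in P cells in 8 of 8 pools. CDH1, CLDN3, ESRP1 and RAB25 passed the detection filter through the later pools, where P cells held more of them. The filter thus bears on this direction too. ESRP1 measured 36.6 ± 7.7 CPM (SD, n = 8) in P cells and 5.07 ± 2.84 CPM in M cells, a log2 difference of 3.01 ± 0.26 (SE, edgeR with the pool as a block, adjusted p = 5.55e-06). CLDN7 measured 104 ± 51 against 15.7 ± 8.7 CPM (2.82 ± 0.23), EPCAM 281 ± 70 against 51.2 ± 28.0 CPM (2.63 ± 0.20) and RAB25 34.2 ± 9.2 against 6.61 ± 4.25 CPM (2.57 ± 0.29). CDH1 measured 30.1 ± 13.6 against 6.20 ± 4.20 CPM (2.37 ± 0.22), CLDN3 10.0 ± 6.8 against 2.23 ± 2.56 CPM (2.22 ± 0.28) and CLDN6 390 ± 111 against 107 ± 33 CPM (1.95 ± 0.18). The highest adjusted p of these 7 was 4.32e-05. CLDN4 stood apart, with 8.97 ± 3.81 CPM in P cells and 7.16 ± 3.03 CPM in M cells, higher in P cells in 6 of 8 pools and not called (0.40 ± 0.20, adjusted p = 0.0865). Without pool B of D15 it was called as higher (0.56, adjusted p = 0.00877 in edgeR). The M cell level of the 7 members was 13.8% to 27.6% of their P cell level, and that of 8 pluripotency genes outside the markers was 12.4% to 31.9% of theirs. Free mRNA in the droplets, mixed droplets and cells between the classes can each give such a level in M cells, and their part was not tested.

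**Figure D4:**
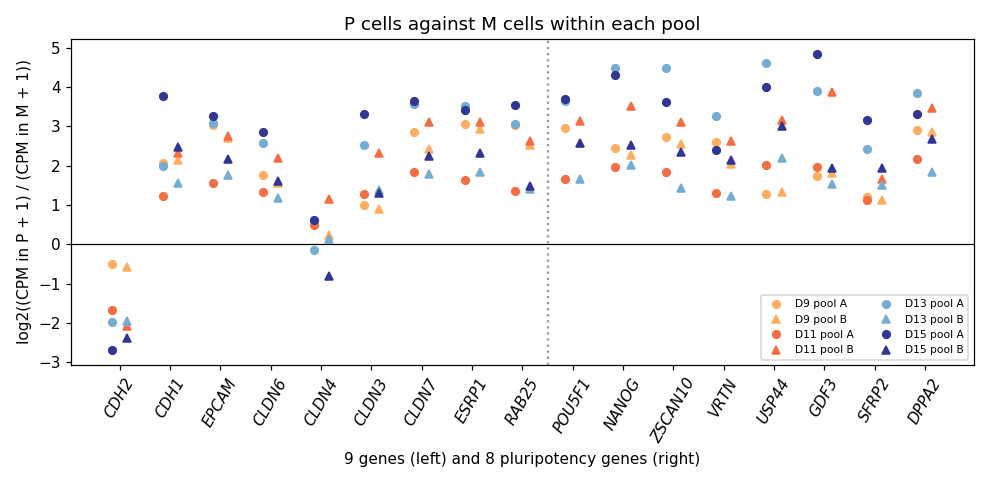
Log2 ratio of the level in P cells to that in M cells, with 1 CPM added to each, in each of the 8 pools of D9 to D15, for the 9 members (left of the dotted line) and 8 pluripotency genes (right). CDH2 is below 0 in all 8 pools, CLDN4 lies on both sides of 0, and the other 7 members are above it.

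The nearly level CDH2 of the pools held different levels in the 2 classes. CDH2 measured 28.5 ± 7.3 CPM (SD, n = 8) in P cells and 101 ± 41 CPM in M cells, and it was lower in P cells in 8 of 8 pools (log2 difference -1.69 ± 0.25, edgeR adjusted p = 0.000151), as were 32.4% of all genes tested. In P cells it measured 39.6 and 38.9 CPM on D9, 22.8 and 22.4 CPM on D11, 22.7 and 31.9 CPM on D13, and 26.6 and 23.3 CPM on D15. In M cells it measured 56.5 and 58.9 CPM on D9, 74.3 and 97.0 CPM on D11, 91.5 and 125 CPM on D13, and 177 and 127 CPM on D15. The P cell pools of D9 lay above all later ones, and the M cell pools of D9 lay below all later ones. The M cells of D15 were few, with 58 cells in pool A and 275 in pool B.

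The difference between the classes itself changed with the day for CDH2. In a fit of D7 to D15 with the pool as a block, chosen after the data were seen, CDH2 was lower in P cells on D9 (log2 difference -0.55 ± 0.13), D11 (-1.90 ± 0.13), D13 (-1.91 ± 0.13) and D15 (-2.47 ± 0.14), on which days 20%, 30.4%, 28.9% and 24.6% of all genes were lower. The change from D9 to D15 was -1.93 ± 0.19 (edgeR, adjusted p = 0.0013), and 3.39% of all genes changed that way. It kept its direction and size when any 1 pool of D9 or D15 was left out, but the adjusted p in edgeR was then 0.0222 without pool A of D9, 0.02 without pool B of D9, 0.0161 without pool A of D15 and 0.00685 without pool B of D15. On D7, CDH2 measured 58.0 and 77.9 CPM in P cells against 45.1 and 43.5 CPM in M cells (log2 difference 0.60 ± 0.13, adjusted p = 0.0146, not called). The change of that difference from D7 to D9 was -1.14 ± 0.19 (edgeR, unadjusted p = 0.000243, adjusted p = 0.226, not called). In that comparison 0 of the 12780 genes tested were called in either direction, so the missing call does not show that CDH2 stayed the same. None of the other 8 members had a difference between classes that was called as changed from D9 to D15, with adjusted p values from 0.364 to 0.936 in the same edgeR fit. Their SE was 0.56 to 0.94 on the log2 scale, so a change as large as that of CDH2 could go uncalled in them.

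CDH1 in P cells was at 1.44 and 2.51 CPM on D7 and at 9.98 and 10.7 CPM on D9. It was at 26.0 and 39.9 CPM on D11, 29.8 and 39.9 CPM on D13, and 43.8 and 40.8 CPM on D15. All P cell pools from D11 on lay above those of D9. The share of P cells was 40.9% and 47.9% on D9 and 40.7% and 50.9% on D11, which overlap. In M cells CDH1 lay between 1.61 and 12.98 CPM over the 8 pools, and it gave 6 UMIs in the M cells of pool A of D15. In P cells, CDH1 thus stood below CDH2 on D9 and above it on D11, D13 and D15 in both pools, whereas in M cells CDH2 was the higher of the cadherins in every pool.

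**Figure D5:**
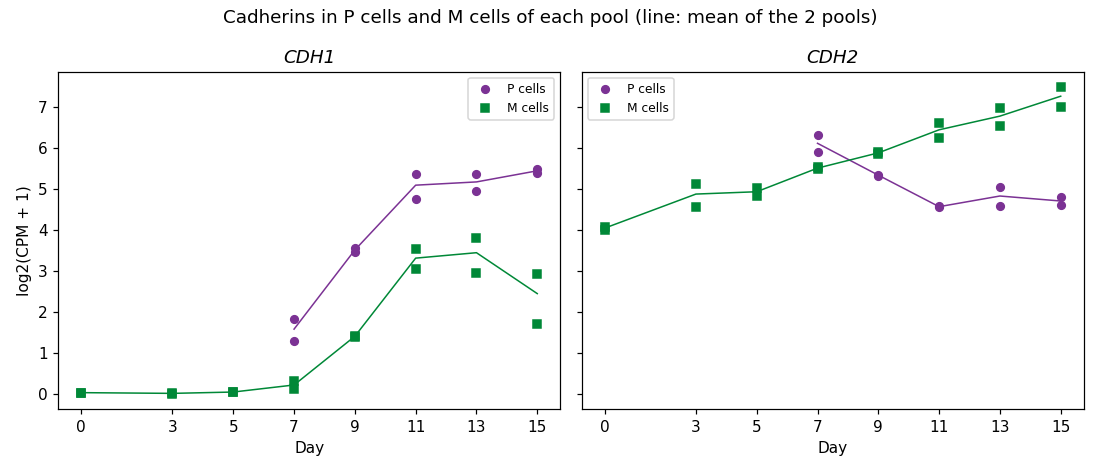
Levels of CDH1 (left) and CDH2 (right) as log2(CPM + 1) in P cells (circles) and M cells (squares) of each pool against the day, for classes of at least 50 cells, with the mean of the pools as a line. CDH2 in M cells goes from 56.5 and 58.9 CPM on D9 to 177 and 127 CPM on D15, while in P cells it goes from 39.6 and 38.9 CPM to 26.6 and 23.3 CPM.

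Few cells showed both cadherins at a common depth. At 5000 UMIs, 0.35% to 2.38% of the cells of a pool of D9 to D15 held a UMI of both, and without thinning the range was 13.5% to 39.2%. Cells with a CDH1 UMI held a CDH2 UMI less often than the other cells of their pool in 7 of 8 pools, for instance 1.94% against 16.7% in pool A of D15 and 7.82% against 14.8% in pool B. The exception was pool B of D9, with 20.7% against 19.5%. Within P cells alone the share with both was below the product of the single shares in 6 of 8 pools, and within M cells it was above the product in 5 of 8. No M cell of pool A of D15 held a CDH1 UMI at this depth, so that pool could fall on neither side. At most 5.40% of the M cells of a pool held one, so the M cell counts rest on few cells. These shares were compared as descriptions, with no test.

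The partners of these genes were read from lists of the same machinery. Between D3 to D7 and D9 to D15, 21% of all genes tested were higher and 22.5% lower, which is the background of the list counts. The counts cover only listed genes that passed the detection filter, which a gene near 0 early could pass through the later pools where it was high, so the filter bears on their direction. Tested were 20 of the 20 scaffold and polarity genes found in the files, 7 of 10 desmosome genes, 10 of 11 adherens junction partners, 4 of 17 further cadherins, 7 of 19 further claudins, 18 of 24 other epithelial genes and 9 of 9 repressors. Of 20 tested genes of tight junction scaffolds and polarity, 14 were higher and 0 lower on D9 to D15 than on D3 to D7, with a median log2 fold change of 1.93 against -0.02 over all genes. CRB3, an apical polarity protein, went from 0.156 ± 0.179 CPM (SD, n = 6) to 10.7 ± 5.0 CPM (n = 8), and F11R, a junctional adhesion molecule, from 4.68 ± 4.34 to 34.6 ± 6.1 CPM. MARVELD3, a tight junction membrane protein, went from 0.875 ± 0.441 to 17.4 ± 10.6 CPM, and CGNL1, a junctional scaffold, from 2.27 ± 2.23 to 19.1 ± 8.4 CPM. Of 7 tested desmosome genes, 5 were higher and 0 lower (median 2.14). Desmoglein DSG2 went from 0.344 ± 0.437 to 28.7 ± 17.8 CPM, the plakophilin PKP2 from 0.597 ± 0.737 to 12.2 ± 2.7 CPM and the desmoplakin gene DSP from 6.77 ± 3.07 to 31.1 ± 10.6 CPM. The adjusted p was at most 3.41e-06 in edgeR for these 7 genes.

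Of 10 tested adherens junction partners of the cadherins, 4 were higher and 2 lower, with a median of 0.36, and the share that was lower was close to that of all genes. The catenin genes CTNNB1 and CTNNA1, which link cadherins to actin, differed by 0.11 and 0.14 on the log2 scale (adjusted p = 0.668 and 0.246, named after their values were seen). JUP, or plakoglobin, rose by 0.79 ± 0.12 and MLLT4, or afadin, by 1.35 ± 0.20, while the nectin genes PVRL2 and PVRL3 moved apart, by 0.67 ± 0.16 and -1.14 ± 0.10 (edgeR, adjusted p at most 0.00322). Of 4 tested further cadherins, 1 was higher and 1 lower, shares close to those of all genes. P-cadherin, CDH3, rose from 2.48 ± 2.15 to 28.8 ± 6.2 CPM (log2 fold change 4.19 ± 0.12, adjusted p = 5.2e-11), and CDH13, a cadherin without a cytoplasmic part, fell by 0.65 on the log2 scale (adjusted p = 0.00553). Of 7 tested further claudins, 4 were higher and 1 lower. CLDN10 rose from 0.719 ± 0.863 to 16.9 ± 4.9 CPM, and CLDN11 fell from 78.3 ± 42.7 to 9.69 ± 9.68 CPM (edgeR, adjusted p = 3.03e-09 and 1.11e-08).

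Other epithelial genes and the repressors lay on opposite sides. Of 18 tested other epithelial genes, 15 were higher and 1 lower, with a median of 3.92. AP1M2, an epithelial sorting adaptor, went from 0.747 ± 0.813 to 42.3 ± 20.9 CPM, the protease gene PRSS8 from 1.41 ± 1.26 to 31.4 ± 12.6 CPM, MAL2 from 0.198 ± 0.170 to 16.1 ± 9.5 CPM and the transcription factor gene ELF3 from 0.674 ± 0.647 to 10.4 ± 4.6 CPM. The 1 that fell was MARVELD1 (-0.79 on the log2 scale, named after its value was seen). Of 9 tested repressors, 7 were lower and 1 higher, with a median of -1.29, against 22.5% of all genes lower. TWIST2 was at 610 CPM on D0, 257 ± 92 CPM on D3 to D7 and 29.4 ± 21.7 CPM on D9 to D15. ZEB1 was at 86.3, 30.5 ± 13.3 and 10.9 ± 6.2 CPM, TWIST1 at 60.5, 32.9 ± 7.5 and 10.2 ± 5.5 CPM, and PRRX1 at 144, 60.3 ± 36.1 and 19.5 ± 13.1 CPM in the same order. Each of these 4 fell (edgeR, adjusted p at most 5.5e-06). The exceptions were TCF3, which rose by 0.64 on the log2 scale, and SNAI1, which differed by 0.09 (adjusted p = 0.768), both named after their values were seen. Within pools of D9 to D15, 8 of the 9 repressors were lower in P cells than in M cells, with a median log2 difference of -3.29 against 0.05 over all genes, and TCF3 was higher. Of the 20 scaffold and polarity genes, 16 were higher and 2 lower in P cells. The counts were 5 higher and 0 lower for desmosome genes, 15 and 1 for other epithelial genes and 3 and 2 for further claudins. Of the adherens junction partners, 2 were higher and 3 lower (median -0.16), and the share that was lower was close to that of all genes. Further cadherins went the other way, with 1 higher and 3 lower (median -1.54). In this comparison 35.7% of all genes were higher and 32.4% lower. Here too the detection filter bears on the direction of the list counts.

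The genes whose course over the 16 pools was most like that of a member differed between members. For CDH1 they were DSG2, WFDC2 and LIN28B, each with a Pearson r of 0.995, and for EPCAM they were VSNL1, HEY2 and PKP2 with 0.997, 0.996 and 0.993. For CLDN6 they were SCGB3A2, RAMP2 and APOE with 0.994, 0.993 and 0.993, and for CLDN7 they were CCL26, CRB3 and REC8 with 0.989, 0.986 and 0.986. For CLDN3 they were SMPD5, ZNF331 and DDX25 with 0.997, 0.991 and 0.988, and for CLDN4 ISYNA1, COL9A3 and DES with 0.985, 0.973 and 0.972. For CDH2 they were SMS, MT1G and C16orf87 with 0.958, 0.944 and 0.944. After each other, ESRP1 and RAB25 were both followed by MAP4K1 among their next 2. Among the members, CDH2 had r between 0.504 with CLDN7 and 0.841 with CLDN6, and the pools share a time course, so these values describe and test nothing.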

How the data were processed

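Single-cell RNA-seq of BJ fibroblasts under mRNA reprogramming (22 libraries, 8 days) was used. The deposited values are raw UMI counts per gene and barcode, made by the authors with Cell Ranger 2.2 on hg38. Aliquots of a pool were added, giving 16 pools, 2 per day. Cells needed 1000 genes or more and 10% mitochondrial UMIs or less, which left 41975 of 44197 barcodes. No doublet caller was run. Pool sums of all days were fitted together in edgeR 4.0.16 with TMM scaling (R 4.3.3), after the script had been tested on simulated data, and p values were adjusted by Benjamini-Hochberg over all 12794 genes tested. Between classes these were 12780 genes, without the class markers. DESeq2 1.42.0 was an alternative, as were another scaling, gene filter, cell draw, call rule, thinning depth and pseudocount, and each pool left out. CPM values were computed from the counts of a pool or class. For shares, each cell was thinned to 5000 UMIs in Python 3.11.15 (scipy 1.17.1). Counting intervals are 95% and cover counting error only. From each gene list up to 4 called genes were named, those with the largest fold change and at least 10 CPM on the higher side, and for each member the 3 genes with the highest Pearson r. The members, lists and tests were chosen with earlier results of these data known. The fit of classes by day, the look at both cadherins in 1 cell and the promoter motif were added after the data were seen. Coordinates are from gencode v44, matched by Ensembl identifier.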

Additional observations from a re-analysis of the deposited data

Results flagged for a closer look

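The difference of CDH2 between P cells and M cells stands out because it differed between days by a test of the difference itself. On the log2 scale the difference, P cells minus M cells, was lower on D15 than on D9, with a change of -1.93 ± 0.19 (SE, edgeR with the pool as a block, adjusted p = 0.0013), and CDH2 was higher in M cells in all 4 pools of these days. It was the 1 of 9 members for which this change was called. The change was not called in edgeR without pool A of D9 (adjusted p = 0.0222), pool B of D9 (0.02) or pool A of D15 (0.0161), and it was called without pool B of D15 (0.00685). Pool A of D15 held the smallest class, of 58 M cells, and without it the change was -1.77. M cells made up 53.4% and 45.4% of the D9 pools and 10.2% and 13.1% of the D15 pools, and the part of this in the result was not tested.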

How the results depend on the processing

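Of the 44 fold changes of members that were recomputed under the alternatives, none reversed. Most of them had been called in the main fit, so a reversal was unlikely from the start, and some lost their call. Leaving out 1 pool moved the counts of members called, namely to between 1 and 2 from D0 to D3, to between 0 and 6 in D7 against D5, to between 0 and 1 from D9 to D11, to between 2 and 3 on D5 against D0, and to 5 in each of 4 fits of D9 against D7. With 2500 cells per day, 1 member was called from D0 to D3. At an adjusted p below 0.05 with no fold limit, 2 were called from D3 to D5, 7 in D9 against D7, 4 from D9 to D11, 1 from D13 to D15 (also 1 with DESeq2), 5 on D5 against D0 and 9 on D9 to D15 against D3 to D7. The cause was not tested beyond the fewer pools or cells, or the other rule, of these fits. The CDH2 class difference between D15 and D9 ranged from -2.22 to -1.77 with a pool left out. The pool letters showed no steady pairing of the pools. Over 28 pairs of days, the pools of the same letter deviated together with a correlation of -0.41 to 0.81 (median -0.03). On some pairs of days they thus went together. With the letter as a replicate block, 6 members were called in D7 against D5 and 6 in D9 against D7, and no count of members changed, and no replicate block between the classes left 8 called. The difference of the cadherin ratio was 6.44 with a pseudocount of 0.1 CPM and 1.30 with 10 CPM, and 3.68 to 4.09 with a pool left out. The order of gain depends on its definition. The first day at 10% of the highest day was 0 for CDH2, 5 for CLDN4, 7 for CLDN6, 11 for CLDN3 and 9 for the other 5. At 25% it was 0 for CDH2, 7 for CLDN4, 11 for CDH1, CLDN3 and CLDN7, and 9 for CLDN6, EPCAM, ESRP1 and RAB25. At 50% it was 3 for CDH2, 9 for CLDN4, CLDN6 and EPCAM, 11 for CDH1, CLDN7, ESRP1 and RAB25, and 15 for CLDN3. The depth limits the days before D7, when CDH1, ESRP1 and RAB25 gave 6 UMIs or fewer a day.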
